A study of Mus musculus with 8 samples.

Results

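The cells described here are 809 of 29891 single bone marrow cells (2.71%), chosen by the unique molecular identifiers (UMIs) counted for 11 genes in each cell. A cell was taken when it held at least 1 UMI of Cd34, at least 1 of Cd48 and at least 1 of Adgrl4 and Selp together, with none of Procr, Hlf, Mecom, Klf1 or Irf8, at most 1 of Dntt and at most 2 of Pf4. They are called the gated cells below. The conditions were meant to take multipotent progenitors that lack stem cell genes, and the 11 gate genes were kept out of every test.

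The cells were sorted KL cells (c-Kit+Lin−, the fraction of marrow that holds stem and progenitor cells) from female C57BL/6 (B6) mice of 3–4 months, profiled with droplet-based 3′ RNA sequencing. SPF mice were kept in specific-pathogen-free housing, and CVT mice were SPF mice moved to a conventional facility and co-housed for 1 month with mice born there. By the labels each housing group had 10 mice in 4 pools of 2 or 3 mice (SPF pools 1, 2, 7 and 8, CVT pools 3, 4, 5 and 6), and the pool was the unit of every test; a figure legend of the study gives fewer mice. A pool is a mixture of animals sequenced as 1 library, so the p-values for housing measure the spread between pools. Sets of cells were compared with pool as a block, and those p-values measure how far the difference within a pool varied across pools.

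Haematopoietic stem cells give rise to multipotent progenitors, which lose self-renewal and split into branches biased toward lymphoid, myeloid or megakaryocyte and erythroid output. CD34 and CD48 appear on the surface of cells as they leave the long-term stem cell state, CD27 marks stem cells and multipotent progenitors of the mouse, and FLT3 rises on lymphoid-biased progenitors. Granulocyte and monocyte precursors begin early to transcribe the proteases and peroxidase of azurophil granules, while Cpa3 and Gata2 belong to basophil and mast cell and to early megakaryocyte and erythroid programmes.

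The pools held 33, 87, 99, 100, 127, 133, 70 and 160 gated cells, pools 1 to 8 in order. Summed over a pool, gated cells gave between 247208 and 1459253 UMIs, out of 19041749 to 59812346 for all cells of a pool, so pool 1 was the least precise. A gated cell had a median of 8669 UMIs (range 2816–29857), 2594 genes and 2.97% mitochondrial UMIs, beside a median of 8979 UMIs in all other cells. Of 29365 distinct cell barcodes, 522 occurred in more than 1 pool, on 1048 cells of which 29 were gated, and no gated barcode was shared between pools as a gated cell.

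Since the gate works on few UMIs, many cells sat at its limits. Cd34 was at exactly 1 UMI in 185 gated cells (22.9%), Cd48 in 263 (32.5%), and Adgrl4 and Selp together in 479 (59.2%), while 82 cells held 1 UMI of Dntt and 19 held 2 of Pf4. Just outside, 198 cells failed on Cd34 alone, 292 on Cd48 alone and 715 on Adgrl4 and Selp alone. Another 358 cells failed only through 1 UMI of Hlf, 120 through 1 of Mecom, 46 through 1 of Procr, 68 through 1 of Klf1, 25 through 2 of Dntt and 4 through 3 of Pf4. Irf8, a transcription factor of monocytes and dendritic cells, kept out the most cells that met every other condition, 1825, of which 377 held 1 UMI, and these 1825 cells had a median of 15213 UMIs.

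Of the surface markers that name these cells, all but Cd27 were used by the gate. Adgrl4, a receptor of endothelial and stem cells, was seen in 94.8% of gated cells and Selp, P-selectin, in 13.6%, against 29.8% and 3.99% of other cells, as the gate fixed. Cd27 was free to differ, and its level, in CPM (UMIs scaled by library size) of the summed cells of a pool, ran from 143 over a median of 158 to 282 in gated cells and from 76.1 over 94.7 to 105 in all other cells. Every pool of gated cells lay above every pool of other cells for Cd27. Levels here and below are the lowest, median and highest of 8 pools on 1 scale for all populations, whereas log2 differences, their standard errors (SE) and adjusted p-values came from edgeR's quasi-likelihood test with pool as a block, fitted separately for each comparison.

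To compare shares of cells at 1 depth, each cell was thinned at random to 2759 UMIs, the total of the shallowest cell. Cd27 then had a UMI in 38.4% of gated cells and in 9.68% of an erythroid reference of 7751 cells, at median depths of 8669 and 11289 UMIs before thinning. The reference was used as a guide to free RNA, but its own expression could not be told apart from free RNA. Flt3 was seen in 9.77% of thinned gated cells against 1.78% of the reference, and Ly6a, the gene of the stem cell antigen Sca-1, in 4.70% against 0.671%. Mpo, which encodes myeloperoxidase, was seen in 78.2% of gated cells and in 31.2% of the reference. Before thinning these shares in gated cells were 73.2% for Cd27, 23.0% for Flt3 and 91.5% for Mpo. Cd27 set the gated cells apart from other cells and the reference, but not from the 3 gates compared with them below, where 43.0% to 44.6% of thinned cells had it. Against the label of multipotent cells, granule genes of the granulocyte and monocyte branch were the most widely seen of the 16 genes examined this way, Mpo first and Elane, neutrophil elastase, next with 44.1% (25.5% in the reference). By pool, Elane was seen in 30.3% to 66.0% of gated cells and in 10.9% to 38.1% of the reference.

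Compared with all other KL cells, the gated cells were higher in granulocyte and monocyte precursor genes and lower in late granulocyte, haemoglobin and erythroid genes. At an adjusted p under 0.05 and a log2 difference of at least 1, 511 of 11265 genes tested (4.54%) were called, 106 higher and 405 lower in gated cells. Genes that accompany a gate gene in a cell follow from the gate, so this comparison describes what the gate took. Cpa3, carboxypeptidase A3 of mast cells and basophils, had 153, 249 and 388 CPM in gated cells and 41.5, 50.1 and 76.6 in other cells, a log2 difference of 2.23 ± 0.08. Among the other genes with the largest positive differences were Fut8 (1.39), Ms4a3 (1.38), Cd63 (1.26), Nkg7 (1.16) and Ikzf2 (1.14), which encode a fucosyltransferase, a protein of granulocyte and monocyte progenitors, a granule tetraspanin, a granule protein and the transcription factor Helios. Among the 10 largest negative differences were Ermap (−4.58) and Car1 (−4.25), erythroid genes, and Camp (−3.48) and Ngp (−3.39), which encode secondary granule proteins of maturing neutrophils.

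By adjusted p alone, 10.6% of all tested genes were higher and 10.5% lower in gated cells than in other cells. Against that background, 11 of 13 tested granulocyte and monocyte genes were higher and 2 lower (median log2 difference 0.92, 0.00 over all genes). The lower pair were Csf1r, the receptor gene of monocytes and macrophages (−1.68 ± 0.20), and Ly6c2 (−0.53 ± 0.08). Basophil and mast cell genes were mixed, with 3 of 8 tested higher and 2 lower (median 0.04), although Cpa3 was among the largest differences. None of the 10 tested late granulocyte genes was higher and all 10 were lower (median −2.78), as were 4 of 4 haemoglobin genes and 9 of 12 megakaryocyte and erythroid genes. In the list of mitosis genes 17 of 18 were lower (median −0.51), Mki67, which encodes the proliferation antigen Ki-67, by 0.75 ± 0.07 in log2, while of 18 DNA replication genes 2 were higher and 2 lower. Cd27 was higher by 0.81 ± 0.07, Meis1, a homeobox gene of stem and progenitor cells, by 0.56 ± 0.08 and Kit by 0.33 ± 0.08, whereas Flt3 (−0.21 ± 0.11, adjusted p = 0.194) and Gata2 (−0.04 ± 0.07, adjusted p = 0.735) did not pass in edgeR. Meis1 did not stand for its list: of 11 tested stem cell genes 2 were higher and 4 lower.

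The higher calls against other cells depended on depth. When the gate was applied to thinned cells, which takes fewer cells, 31 genes were called higher in place of 106, and Elane turned from 1.13 ± 0.09 to −1.01, Ms4a3 to −0.42 and Hdc, histidine decarboxylase of basophils and mast cells, from 1.39 to −0.71. Cpa3 (0.64) and Fut8 (0.96) kept their sign below the log2 limit of 1, and Cd63 came to 0.03.

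**Figure D1:**
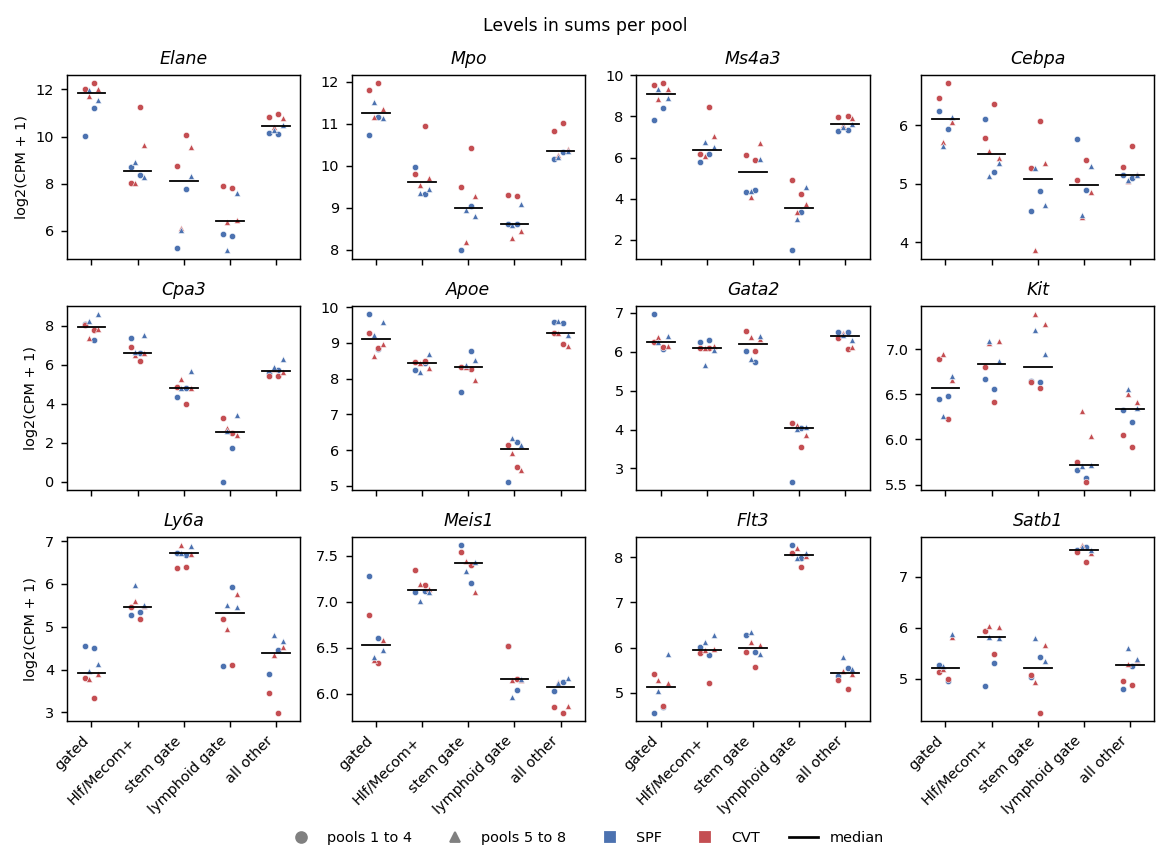
Levels of 12 genes in the summed cells of each of 8 pools, as log2(CPM + 1) on the vertical axes, for the gated cells, the counterpart with Hlf or Mecom, the stem gate, the lymphoid gate and all other cells. Each point is 1 pool (blue SPF, red CVT, circles pools 1 to 4, triangles pools 5 to 8) and the line is the median. Elane, Mpo, Ms4a3 and Cpa3 had their highest medians in gated cells, Ly6a and Meis1 in the stem gate, and Flt3 and Satb1 in the lymphoid gate.

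The gated cells were uneven in Elane. No Elane UMI was counted in 265 cells (32.8%), 1 to 4 in 329 (40.7%), 5 to 49 in 71 (8.78%) and 50 or more in 144 (17.8%), and these 144 cells held 93.6% of all Elane UMIs of the gate. The bounds were chosen after the values were seen. The 4 classes had median depths of 7201, 8179, 12547 and 17026 UMIs, so the Elane-rich cells were also the deepest. In the class without Elane, Mpo stood at 612 CPM and Ms4a3 at 50.6, and in the class with 50 or more they stood at 6317 and 1587. Genes of other branches ran the opposite way: between the same classes Apoe, an apolipoprotein gene of erythroid and megakaryocyte progenitors, went from 773 to 116 CPM, Gata2 from 121 to 14.0, Meis1 from 147 to 14.0, Flt3 from 58.0 to 5.76, Kit from 129 to 58.9 and Cd27 from 206 to 84.8. Cpa3 was highest in between, with 213, 296, 496 and 122 CPM in the 4 classes.

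Cells with 50 or more Elane UMIs made up 17.8% of the gate, 9.46% of all other cells, 2.52% of the counterpart with Hlf or Mecom, 1.13% of the stem gate and 0.400% of the lymphoid gate. The share of a cell's UMIs that came from Mpo, Elane, Prtn3 and Ctsg together had a median of 0.280% in gated cells, with 10% of cells under 0.0670% and 10% over 2.55%. The medians were 0.141% in the counterpart, 0.100% in the stem gate, 0.0871% in the lymphoid gate and 0.0718% in other cells. On thinned cells, Apoe was seen in 73.2% of the gated cells with Cpa3 and in 39.9% of those without, and Gata2 in 33.2% and 15%. Flt3 went the other way, with 1.70% of the cells with Cpa3 and 13.1% of those without, and Satb1, a chromatin organiser of lymphoid progenitors, was seen in 22.8% of cells with Flt3 and 10.8% of those without. Elane and Cpa3 were seen together no more often than apart (28.3% of cells with Elane and 29.6% of those without had Cpa3). These shares describe cells of shared libraries and carry no test.

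**Figure D2:**
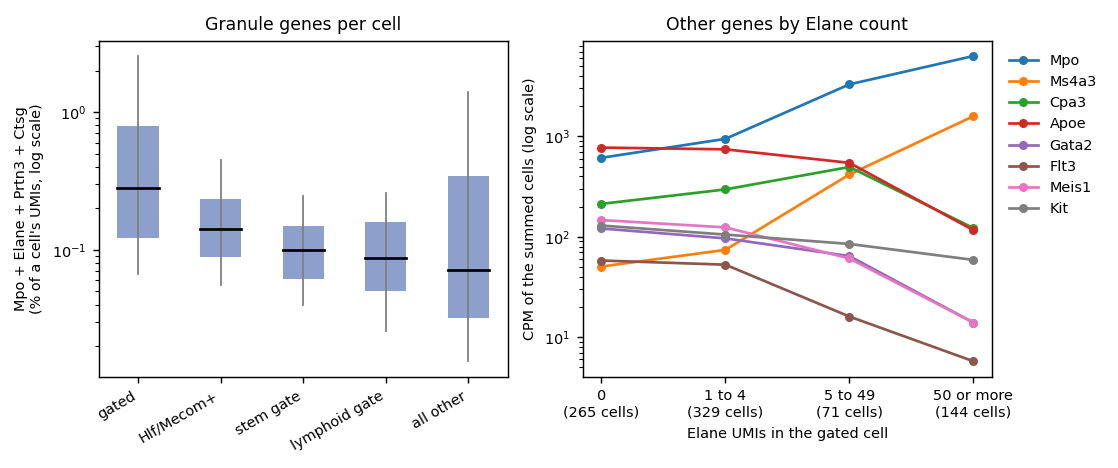
Left: share of a cell's UMIs from Mpo, Elane, Prtn3 and Ctsg (%, log scale) in 5 populations, with the box from the 25th to the 75th percentile of cells, whiskers from the 10th to the 90th and a line at the median, 0.280% in gated cells. Right: CPM (log scale) of 8 genes in gated cells summed by their Elane UMIs; Mpo and Ms4a3 climb while Apoe, Gata2, Meis1, Flt3 and Kit are lowest in the 144 cells with 50 or more.

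The nearest population was a counterpart of 1030 cells that met every other condition but held at least 1 UMI of Hlf or Mecom, transcription factors of stem cells. Gated cells were higher in granule and granulocyte genes and lower in stem cell, Sca-1 and lymphotoxin genes than this counterpart. Calls covered 73 of 7626 genes (0.957%), 50 higher and 23 lower in gated cells. Elane had 1027, 3706 and 4946 CPM in gated cells and 258, 372 and 2414 in the counterpart, a log2 difference of 2.71 ± 0.16, and was higher within all 8 pools. The value of 2414 belonged to pool 4, which was also highest among gated cells, so the ranges overlapped through that pool. Mpo had 1685, 2449 and 4006 CPM against 645, 785 and 1982 (1.6 ± 0.07), and Ctsg, cathepsin G, 1189, 2436 and 3195 against 413, 563 and 1739 (1.85 ± 0.08). Ms4a3 (2.27 ± 0.10), Ly6c2, a surface antigen of monocytes and granulocytes (2.44 ± 0.12), Cebpe, a transcription factor of granule gene expression (2.17 ± 0.14), and Fcgr3, an Fc receptor gene (1.97 ± 0.14), were higher in all 8 pools too. Igsf6 (2.21), Trem3 (1.85), Anxa3 (1.83) and Rgcc (1.75) completed the 10 largest.

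Genes of basophils and mast cells went with the granule genes. Cpa3 was at 153, 249 and 388 CPM in gated cells against 72.8, 98.2 and 182 in the counterpart (1.13 ± 0.07), and Hdc was higher by 1.5 ± 0.13 in 7 of 8 pools. All 3 tested genes of the basophil and mast cell list passed as higher, where 10.2% of all genes did. Of 12 tested granulocyte and monocyte genes 11 were higher and none lower (median 1.33, −0.01 over all genes). Among the higher were Cebpa, the factor that opens the granulocyte and monocyte branch (0.53 ± 0.10), and Gfi1, a transcriptional repressor needed for neutrophil development (0.60 ± 0.18). Gata2 did not pass (0.18 ± 0.09, adjusted p = 0.177), while Apoe was higher by 0.69 ± 0.07. Of 14 glycolysis genes 7 were higher and none was lower.

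Lower in gated cells by adjusted p were 7.75% of all genes and 7 of 7 tested stem cell genes (median −0.76). The counterpart was chosen for Hlf or Mecom, so genes that accompany these 2 in a cell follow from the gates. Ly6a had 9.01, 14.2 and 22.6 CPM in gated cells and 35.5, 43.3 and 61.9 in the counterpart, which did not overlap (−1.59 ± 0.14). Mllt3, a factor of stem cell maintenance, was lower by 0.91 ± 0.18 in log2, Meis1 by 0.61 ± 0.07 and Flt3 by 0.73 ± 0.11. The largest drops among abundant genes were Ltb, which encodes lymphotoxin beta (−1.49 ± 0.13), and Myl10, a myosin light chain gene (−1.44 ± 0.07). Of 13 AP-1 and immediate early genes, which respond to stimuli and to handling, 9 were lower and none higher, with Fos at −0.43 ± 0.08 and Jund at −0.59 ± 0.07. Cd27 (−0.26 ± 0.06) and Kit (−0.24 ± 0.08) were lower by small amounts, and of 24 transcription factor genes 10 were lower and 4 higher.

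The number of calls against the counterpart depended on the Elane-rich cells. With cells of 50 or more Elane UMIs left out of both populations, a setting chosen after the data were seen, 16 genes were called, 15 of them among the 73. Elane (1.17), Ctsg (1.13), Ms4a3 (1.17), Cebpe (1.57), Cpa3 (1.32) and Hdc (1.15) were still called, while Mpo (0.87), Ly6c2 (0.62), Prtn3 (0.38) and Rgcc (0.33) were not, nor was Emcn (−0.84). By adjusted p, 9 of 11 tested granulocyte and monocyte genes stayed higher and 4 of 6 stem cell genes lower, while of 13 immediate early genes 1 was lower in place of 9 (median −0.09 in place of −0.34). When cells were thinned before gating, 5 of 1155 genes were called, Elane at 2.67, Mpo at 1.65 and Ctsg at 1.98. Summed markers of B, T and NK cells ran from 478 to 939 CPM in gated cells and from 374 to 547 in the counterpart, with 2 and 1 of 11 genes at 0 in all pools. That list holds Nkg7, the granule protein gene named above. Only 2 of its genes were tested here, of which 1 was higher by adjusted p. Late granulocyte genes ran from 866 to 13005 and from 715 to 5442, and their part in the result was not tested.

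**Figure D3:**
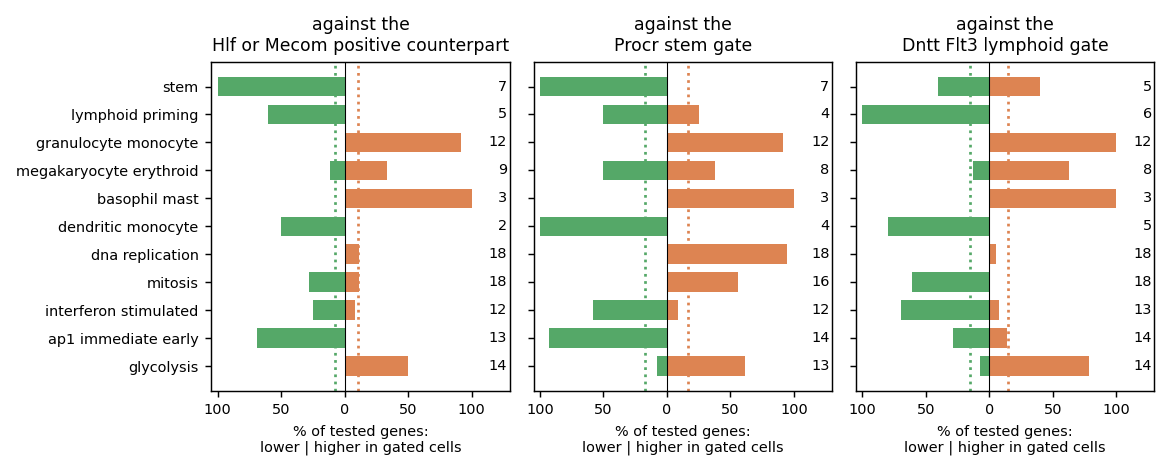
Share (%) of the tested genes of 11 gene lists that were higher (right, orange) or lower (left, green) in gated cells at an adjusted p under 0.05, against each of 3 populations; the number at the right is the count of tested genes, and the dotted lines give the same share over all genes tested. Granulocyte and monocyte genes reach 11 of 12, 11 of 12 and 12 of 12 higher, and stem genes 7 of 7 lower against the first and second populations. Stem genes that accompany Procr, Hlf or Mecom, and lymphoid priming genes that accompany Dntt or Flt3, follow from the gates.

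A stem gate of 711 cells (at least 1 UMI of Procr and of Hlf or Mecom, and at most 1 of Dntt) gave a wider contrast. Gated cells were higher in granule, mast cell and DNA replication genes and lower in stem cell, interferon-stimulated and immediate early genes. Of 6700 genes, 214 (3.19%) were called, 55 higher and 159 lower. Ms4a3 had 226, 553 and 796 CPM in gated cells against 16, 38.9 and 104 in the stem gate (3.45 ± 0.12), and Elane 1027, 3706 and 4946 against 38.3, 273 and 1057 (3.43 ± 0.19). Cpa3 had 14.9, 27.3 and 50.5 CPM in the stem gate, all below its lowest gated pool at 153 (2.94 ± 0.11). Mpo (2.26 ± 0.08), Ctsg (2.48 ± 0.09), Cebpe (2.92 ± 0.17) and Fcgr3 (2.68 ± 0.16) were higher in 8 of 8 pools. Where 16.9% of all genes were higher by adjusted p, 11 of 12 granulocyte and monocyte genes were (median 1.6, −0.02 over all genes) and 3 of 3 basophil and mast cell genes.

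Genes of the cell cycle were higher in gated cells than in the stem gate. Of 18 DNA replication genes 17 were higher (median 0.54), among them Mcm5, a subunit of the replicative helicase, at 99.1, 118 and 152 CPM against 47.9, 70.6 and 100 (0.67 ± 0.10). Of 16 mitosis genes 9 were higher and none lower, and Mki67 missed the threshold (0.30 ± 0.12, adjusted p = 0.0524). On the lower side stood 17.5% of all genes and 7 of 7 stem cell genes (median −2.14). Since the stem gate required Procr with Hlf or Mecom, lower stem cell genes that accompany them follow from the gates. Ly6a had 82.2, 104 and 118 CPM in the stem gate against at most 22.6 in gated cells (−2.83 ± 0.13), and Mllt3 54.2, 63.5 and 80.9 against at most 16.4 (−2.68 ± 0.15). These ranges did not overlap. Ltb (−3.13 ± 0.11) and the antigen presentation genes Cd74 (−3.05 ± 0.18) and H2-Aa (−2.72 ± 0.19) were lower too, and all 4 tested genes of the dendritic cell and monocyte list, which holds Cd74 and H2-Aa, were lower (median −2.01). The stem gate sets no limit on Irf8, which averaged 48.5 CPM there and 0 in gated cells, and its part in these drops was not tested. Of 12 interferon-stimulated genes 7 were lower and 1 higher, with Irf7 at −1.82 ± 0.23, and of 14 immediate early genes 13 were lower (median −0.80), with Fos at −0.83 ± 0.11 and Jund at −1.05 ± 0.09. Gata2 did not pass (0.04 ± 0.10, adjusted p = 0.827).

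Without the cells of 50 or more Elane UMIs, 118 genes were called against the stem gate, 104 of them among the 214, with 16 of 18 replication genes still higher, 7 of 7 stem genes still lower and 8 of 10 granulocyte and monocyte genes higher. Gating thinned cells left 46 of 1290 genes called, with Elane at 2.70, Mpo at 2.46 and Ctsg at 2.81. Dendritic cell and monocyte markers summed to 56.9–106 CPM in gated cells and 153–326 in the stem gate, and their part in the result was not tested.

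A lymphoid gate of 1251 cells (at least 2 UMIs of Dntt and 1 of Flt3, with no Procr, Hlf or Mecom) gave the most calls of the 3. Gated cells were higher in granulocyte, mast cell, megakaryocyte and erythroid genes and lower in lymphoid priming, mitosis and interferon-stimulated genes. Calls covered 345 of 7848 genes (4.4%), 153 higher and 192 lower, with Flt3 out of the test. Cpa3 was at 0, 4.81 and 9.82 CPM in the lymphoid gate (5.44 ± 0.12), Ms4a3 at 1.77, 10.8 and 28.7 (5.21 ± 0.10) and Elane at 35.2, 85.1 and 237 (4.85 ± 0.14), all far below their lowest gated pools. Gata2 had 65.9, 75.2 and 124 CPM in gated cells against 5.32, 15.3 and 17.1 (2.40 ± 0.12), Itga2b, integrin alpha IIb of megakaryocytes and early progenitors, 28.0, 36.8 and 61.5 against 0, 3.67 and 6.0 (3.33 ± 0.21), and Apoe 399, 545 and 892 against 33.7, 64.2 and 80.5 (3.20 ± 0.09). None of these ranges overlapped. By adjusted p 14.9% of all genes were higher, and 12 of 12 granulocyte and monocyte genes (median 2.36, −0.01 over all genes), 5 of 8 megakaryocyte and erythroid genes and 11 of 14 glycolysis genes were.

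In the other direction 15.2% of all genes were lower, and 6 of 6 lymphoid priming genes (median −2.41). Since the lymphoid gate required Dntt and Flt3, lymphoid priming genes that accompany them follow from the gates. Satb1 had 30.3, 36.3 and 57.4 CPM in gated cells against 156, 182 and 194 (−2.14 ± 0.09), and Notch1, the receptor that directs T cell fate, 0, 12.9 and 16.4 against 63.5, 79.7 and 106 (−2.69 ± 0.14). Il7r, the interleukin-7 receptor gene, was at 0 in the median gated pool and at most 4.25 CPM, against 32.1, 38.8 and 50.2. Cox6a2, a subunit of cytochrome c oxidase, gave the largest drop (−5.54 ± 0.21). Of 18 mitosis genes 11 were lower and none higher (median −0.54), Mki67 by 0.60 ± 0.10 in log2, and of 13 interferon-stimulated genes 9 were lower and 1 higher. Dendritic cell and monocyte genes were lower in 4 of 5 cases (median −1.30), with Ctss at −2.74 ± 0.14 and Cd74 at −2.08 ± 0.20. The lymphoid gate sets no limit on Irf8, which stood at 355 CPM there and at 0 in gated cells. All 9 tested late granulocyte genes were higher (median 1.35), Ngp by 1.35 ± 0.21 and S100a8 by 1.26 ± 0.19, of which S100a8 came to 0.37 and was not called on thinned cells. Summed, the list had 1200, 866, 1540, 1053, 8264, 13005, 4498 and 2113 CPM in gated cells of pools 1 to 8. The lymphoid gate had 1019, 1233, 985, 606, 1826, 2385, 1684 and 1478. In CVT pools 5 and 6 the 3 richest gated cells held 80.2% and 85.3% of the Ngp UMIs. Meis1 (0.38 ± 0.08) and Kit (0.82 ± 0.08) were higher, and Cd27 (−0.37 ± 0.07) was lower. Leaving out the cells of 50 or more Elane UMIs kept 217 of these 345 calls among 261, and gating thinned cells left 52 of 2406 genes, with Elane at 2.57.

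Across the 4 gates on thinned cells, Mpo was seen in 78.2% of gated cells, 60.4% of the counterpart, 39.9% of the stem gate and 51.3% of the lymphoid gate. Cebpa, which is scarcer, followed with 18%, 12%, 7.17% and 7.83%, beside 31.2% for Mpo and 3.01% for Cebpa in the erythroid reference. Flt3 was seen in 9.77%, 17.1%, 16.2% and 55.8%, Meis1 in 25.8%, 34.3%, 38.0% and 20.6%, and Ly6a in 4.70%, 12.1%, 28.1% and 10.7% of the same 4 gates, and Meis1 in 11.4% of the reference. For Gata2 the shares were 20.3%, 16.6%, 20.1% and 4.00%, and the erythroid reference, which expresses this gene, had 31.8%. The median depths of the counterpart, stem and lymphoid gates were 8009, 6235 and 9275 UMIs before thinning.

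Within the gate, 186 cells held a UMI of Flt3 and 623 did not, at median depths of 8131 and 8920 UMIs. Cells with Flt3 were higher in Satb1 and Wfdc17 and lower in granule, mast cell and Apoe transcripts. Of 3997 genes 17 (0.425%) were called, 5 higher and 12 lower. Satb1 ran from 32.1 over 69.7 to 100 CPM in cells with Flt3 and from 20.2 over 26.9 to 53.4 in cells without (1.20 ± 0.20), and was higher within all 8 pools although the ranges overlapped. Wfdc17, which encodes a secreted protein with a protease inhibitor fold, had 32.1, 208 and 356 CPM against 4.75, 34.0 and 46.5 (2.50 ± 0.21). Elane ran from 80.7 over 1272 to 4578 CPM with Flt3 and from 1276 over 4216 to 4787 without (−1.74 ± 0.21), lower in 8 of 8 pools. Cpa3 (−1.17 ± 0.15), Apoe (−1.11 ± 0.10), Ms4a3 (−1.15 ± 0.17) and Fcgr3 (−1.70 ± 0.26) were lower as well.

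By adjusted p 1.53% of all genes were higher and 1.78% lower in gated cells with Flt3, and 7 of 11 granulocyte and monocyte genes were lower (median −0.75, 0.01 over all genes), with Mpo at −0.96 ± 0.12. Cd27 was higher by 0.61 ± 0.11, and Meis1 did not pass (0.46 ± 0.15, adjusted p = 0.103). Of the cells with Flt3, 6.45% held 50 or more Elane UMIs, against 21.2% of those without. With such cells left out of both, Elane came to −0.12 and Ms4a3 to −0.36 and neither was called, and 4 of the 17 calls remained among 10. Gating thinned cells left 2 of 570 genes called, and pools 1 to 4 alone gave 2, against 51 in pools 5 to 8.

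The gate took cells through Adgrl4 alone (699 cells), Selp alone (42) or both (68). Between the Selp and the Adgrl4 cells edgeR called none of 2057 genes (0%). An unadjusted p under 0.05 was reached by 49 in the positive and 59 in the negative direction. Together these are close to the number that this threshold passes without any difference. DESeq2 called 1. A pool held between 3 and 10 Selp cells. Of 9 tested granulocyte and monocyte genes 7 had a negative sign (median −0.78, 0.01 over all genes), without passing.

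The study asked how co-housing in a conventional facility changed stem and progenitor cells, and for the gated cells this meant their share and their expression. Gated cells made up 1.75%, 2.26%, 3.39% and 3.53% of the cells in SPF pools 1, 2, 7 and 8 and 2.04%, 2.39%, 2.93% and 3.17% in CVT pools 3, 4, 5 and 6. The means were 2.73% ± 0.868 in SPF and 2.63% ± 0.509 in CVT mice (SD, n = 4 pools each), a difference of −0.0998 percentage points with p = 0.83 in an exact two-sided permutation test over 70 regroupings. The smallest p this design allows is 0.0286. On all UMIs, pools 5 to 8 lay above pools 1 to 4, whatever their housing, but on thinned cells SPF pool 2 (1.72%) lay above pools 5 (1.57%), 6 (1.31%) and 7 (1.6%). The labels name no batch, and this division of the pools came from earlier results of these data. Hbb-bs, a haemoglobin gene, moved with it: it was seen in 1% to 3.03% of thinned gated cells in pools 1 to 4 and in 24.4% to 43.8% in pools 5 to 8, and its part in the result was not tested. The difference was 0.214 points within pools 1 to 4 and −0.413 within pools 5 to 8 (exact p = 0.667 and 0.333 over 6 regroupings each). On thinned cells the shares were 1.58% ± 0.374 in SPF and 1.19% ± 0.305 in CVT mice (exact permutation p = 0.143).

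**Figure D4:**
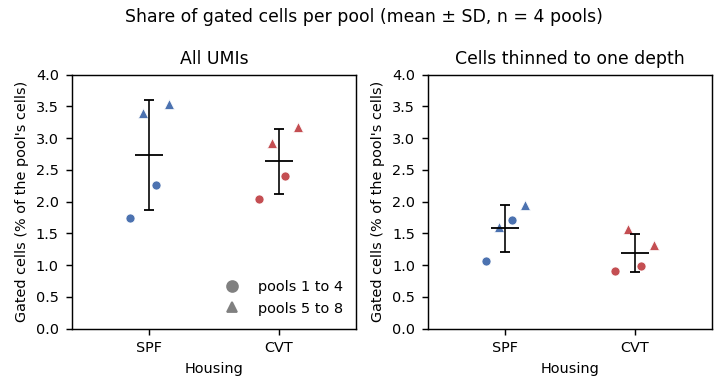
Gated cells as a percentage of all cells of a pool, counted on all UMIs (left) and on cells thinned to 2759 UMIs (right), by housing. Points are pools (circles pools 1 to 4, triangles pools 5 to 8), and bars give the mean ± SD of 4 pools; on all UMIs the 4 triangles lie above the 4 circles in both groups.

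The make-up of the gate by single genes was compared on thinned cells. Mpo was seen in 80.1% of gated cells of CVT and 76.5% of SPF mice, Flt3 in 8.58% and 8.69%, Gata2 in 20.7% and 21.1%, Cd27 in 36.6% and 45%, Mki67 in 11.1% and 14.4% and Ly6a in 4.27% and 6.15% (means of 4 pools). Unadjusted exact permutation p-values ran from 0.314 to 0.971, and none of the 6 passed after adjustment over the 6 genes (lowest adjusted p = 0.686). SPF pool 1, with 33 gated cells, had 69.7% for Cd27 and 21.2% for Mki67. Without that pool the CVT minus SPF differences were −0.228 points for Cd27 and −0.970 for Mki67.

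Expression in gated cells of CVT and SPF mice did not differ for any single gene past the threshold in edgeR, with 0 of 7396 genes called (0%). Before adjustment, 227 genes with a positive and 171 with a negative difference had p under 0.05, and DESeq2 also called 0. The 2 counts together are close to the number that this threshold passes without any difference. The genes of smallest p are given with their pool values, and none of them passed. Hp, which encodes haptoglobin, was at 142, 132, 113 and 153 CPM in CVT pools 3 to 6 and at 41.5, 89.3, 105 and 67.3 in SPF pools 1, 2, 7 and 8 (log2 difference 0.76 ± 0.16, adjusted p = 0.393). All CVT pools lay above all SPF pools for Hp, and the same was true of Clec12a, a C-type lectin gene of myeloid cells, at 202, 261, 168 and 215 against 90.5, 140, 167 and 146 (0.58, adjusted p = 0.401). Mgst1, a microsomal glutathione transferase gene, stood at 40.8, 48.4, 51.3 and 62.8 against 15.1, 31.9, 25.8 and 28.9 (0.88 ± 0.19, adjusted p = 0.393). Toward SPF pointed Erf, a repressor of the ETS family (−1.26), Car2, carbonic anhydrase 2 (−0.60), Osbpl1a (−0.89), 1810014B01Rik (−1.6) and Hmga2, a chromatin protein of young progenitors (−1.04), at adjusted p-values from 0.401 to 0.448.

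Most granule genes had a positive sign without passing. Elane was at 4069, 4785, 3329 and 4115 CPM in CVT pools 3 to 6 and at 1029, 2330, 3959 and 2915 in SPF pools 1, 2, 7 and 8 (0.66 ± 0.21, adjusted p = 0.651), so the groups overlapped through SPF pool 7. Mpo gave 0.44 ± 0.14 (adjusted p = 0.651), Prtn3 0.47 ± 0.12 (adjusted p = 0.442) and Ctsg 0.47 ± 0.15. Of 12 granulocyte and monocyte genes 11 were positive (median 0.45, 0.00 over all genes), and 8 of 9 late granulocyte genes were (median 1.89). Camp had 93.2, 57.9, 792 and 1675 CPM in CVT pools and 86.7, 82.9, 134 and 106 in SPF pools (2.65 ± 0.62, adjusted p = 0.401). In CVT pools 5 and 6 the 3 richest cells held 81.1% and 88.8% of its UMIs, so its value rested on few cells.

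The count of 0 changed under other settings. With every gene that had a UMI in the table, 59 were called (50 higher in CVT, 9 lower). Leaving out cells with over 2 times their pool's median UMIs gave 36, of which 34 were higher in CVT mice, among them Elane (1.46), Ms4a3 (1.48), Mpo (0.75), Hp (1.35) and Ly6c2 (1.85). This limit differed between pools, from 15059 to 25543 UMIs, and the cells it removed held 0%, 53.0%, 17.1%, 5.53%, 57.2%, 43.2%, 85.6% and 60.1% of the Elane UMIs of gated cells in pools 1 to 8. With 1 limit of 15000 UMIs for all pools, a setting added after the data were seen, 0 genes were called. That limit was uneven too, removing 0, 18, 14, 34, 17, 19, 16 and 19 gated cells from pools 1 to 8. It also lies below the median depth of the cells with 50 or more Elane UMIs, 17026 UMIs. With pools 1 to 4 and 5 to 8 as a block, 14 genes were called, all higher in CVT mice, led by the late granulocyte genes Ltf (3.03), Chil3 (3.08) and Ngp (2.30), and including Hp (0.76) and Mgst1 (0.90). Ltf and Ngp differed by −0.07 and −0.08 in pools 1 to 4 and by 3.49 and 3.16 in pools 5 to 8. In CVT pools 5 and 6 the 3 richest cells held 80.2% and 85.3% of the Ngp UMIs. Leaving out CVT pool 3 gave 3 calls (Camp, Ngp and Ltf), CVT pool 4 gave 4 (these and Lcn2) and SPF pool 7 gave 1 (Ly6c2).

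Cells with 50 or more Elane UMIs made up 23.2%, 28.0%, 18.9% and 18.8% of gated cells in CVT pools 3 to 6 and 6.06%, 11.5%, 18.6% and 11.9% in SPF pools 1, 2, 7 and 8. The means were 22.2% ± 4.37 and 12% ± 5.12 (SD, n = 4), and the exact permutation p was 0.0286, the smallest the design gives. The bound of 50 was chosen after values were seen, and CVT pool 6 and SPF pool 7 differed by a fraction of a point. At 20 or more Elane UMIs the exact p was 0.0857 and at 100 or more it was 0.171. Such bounds depend on depth, and the median depth of gated cells ran from 7777 UMIs in SPF pool 1 to 12217 in CVT pool 4. The median share of a gated cell's UMIs from Mpo, Elane, Prtn3 and Ctsg was 0.356% ± 0.135 in CVT and 0.225% ± 0.0605 in SPF pools. For that share the groups overlapped and the exact permutation p was 0.114. On thinned cells any Elane UMI was seen in 52.5% ± 12.1 of CVT and 34.5% ± 5.44 of SPF gated cells (exact permutation p = 0.0571), and in 25.5% of the erythroid reference. The share in the reference was not constant, from 10.9% in its lowest to 38.1% in its highest pool, and its part in the difference was not tested.

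**Figure D5:**
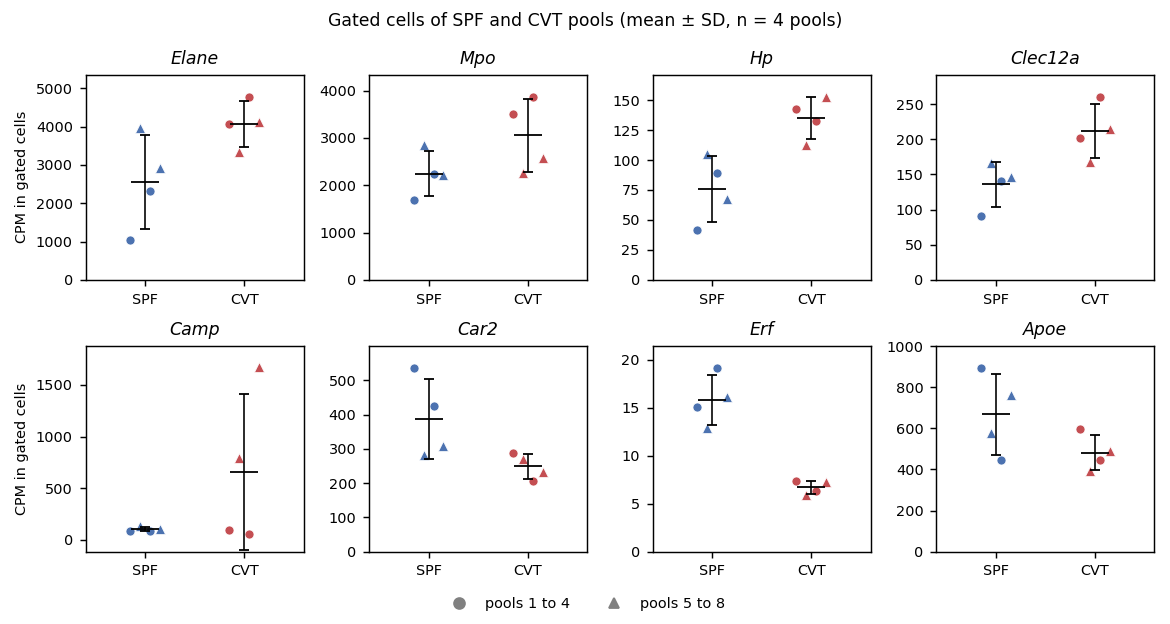
CPM of 8 genes in gated cells of SPF and CVT pools; points are pools (circles pools 1 to 4, triangles pools 5 to 8) and bars are the mean ± SD of 4 pools. No gene passed the adjusted threshold; Hp and Clec12a show all CVT pools above all SPF pools, Elane overlaps through SPF pool 7, and Camp is high only in CVT pools 5 and 6.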

How the data were processed

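The authors sorted KL cells, prepared 10x Genomics 3′ v2 libraries and ran Cell Ranger for UMI counting, its version being not given in the sources used here; the submitters' processing notes name the mouse build mm9. The deposited table holds raw UMI counts per gene and cell, 27998 genes by 29891 cells with no normalisation. It holds 12331 SPF and 17560 CVT cells, slightly fewer than the study states. Cells were assigned to pools by the numeric suffix of their names, which is the number in the description of each sample. No column of per-sample values was left unused. No coordinates or sequences were used.

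Members, gene lists and tests were chosen with earlier results of these data known. The gate was applied to raw counts. Counts of each population were summed per pool and tested with edgeR 4.0.16 (R 4.3.3, TMM, filterByExpr, quasi-likelihood F-test, Benjamini-Hochberg over all genes tested), with pool as a block between populations and no covariate for housing. SEs were the absolute log2 difference over the square root of F. Calls needed an adjusted p under 0.05 and, between populations, a log2 difference of at least 1. The 11 gate genes, and Flt3 where it defined a population, were left out of the tested tables but stayed in library sizes. The erythroid reference served as a guide to free RNA. No doublet caller was run; leaving out cells over 2 times their pool's median UMIs was an alternative. Shares were compared by exact permutation (scipy 1.17.1). Thinning drew 2759 UMIs per cell without replacement with a fixed seed.

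Named genes were the 10 largest log2 differences per direction among called genes with the same sign in all pools and at least 50 CPM in the higher population. For housing, where no gene was called, the 5 smallest p per direction were named as not passing. Gate genes and members of the lists were named as description or examples. Depth in gated cells was 247208–1459253 UMIs per pool. Alternatives were DESeq2 1.42.0, other normalisation and filters, thinned cells, a cell filter (1000 genes or more, mitochondrial UMIs up to 10%), housing groups or pool sets alone, a pool set block, and each pool left out. Scripts were tested on simulated data. Some genes covered by the naming rule are not reported here.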

Additional observations from a re-analysis of the deposited data

Results flagged for a closer look

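The CVT against SPF difference in gated cells was itself compared between pools 5 to 8 and pools 1 to 4, as an interaction in edgeR. This division of the pools came from earlier results of these data, which the p-values do not take into account. Of 7396 genes 11 passed at an adjusted p under 0.05, and 450 had an unadjusted p under 0.05. The late granulocyte genes Camp, Ngp, Ltf and Lcn2 had a larger CVT minus SPF difference in pools 5 to 8, by 3.57 for Camp (−0.14 in pools 1 to 4 and 3.38 in pools 5 to 8), 3.29 for Ngp (−0.08 and 3.16), 3.6 for Ltf (−0.07 and 3.49) and 2.46 for Lcn2 (0.14 and 2.55), all in log2. The UMIs of Camp and Ngp lay in few cells: 8 gated cells, 4 each in CVT pools 5 and 6, held 20 or more UMIs of Camp and Ngp together, and the 3 richest cells of those pools held 81.1% and 88.8% of the Camp and 80.2% and 85.3% of the Ngp UMIs. Another 5 genes had the larger difference in pools 1 to 4. It was −0.96 for Mpo (0.95 in pools 1 to 4 and −0.07 in pools 5 to 8), −1.32 for Ms4a3 (1.39 and 0.01), −1.80 for Hdc (1.90 and 0.06), −1.22 for Rgcc (1.34 and 0.07) and −3.40 for Csrp3 (3.18 and −0.26). Cbx3, a heterochromatin protein gene, gave 0.99 (−0.47 and 0.48), and Bex6 gave 1.27 (−0.66 and 0.56). Each effect within a set of pools rested on 2 CVT and 2 SPF pools. In none of 34 groups of 4 pools examined did a single pool stand apart by Dixon's test.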

How the results depend on the processing

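Detection at 1 UMI, few cells in some pools and the Elane-rich cells limited these results. Of the named gene values across settings, 3452 kept their direction and side of the threshold, 63 gained and 103 lost a call, and 6 changed sign; the cause was not tested. The share difference (CVT minus SPF) turned positive without the Adgrl4 or Selp condition (0.482), without the lineage conditions (1.47), with the 4 gates as denominator (1.90) and in pools 1 to 4 (0.214), and ran from −0.428 to 0.166 with each pool left out. Called genes numbered as follows. With every gene that had a UMI: 59 by housing, 188 against the counterpart, 745 against the stem gate, 816 against the lymphoid gate, 61 by Flt3 and 53 for Selp. With thinned cells, where fewer genes were tested: 259 against other cells, 5, 46, 52 and 2 by Flt3. Without high-UMI cells: 36 by housing, 334 against other cells, 45 against the counterpart and 6 for Selp. With the pool set as a block, housing gave 14. Selp gave 1 by DESeq2 and 3 in CVT pools. Of the settings added after the data were seen, leaving out cells with 50 or more Elane UMIs gave 16 against the counterpart, 118 against the stem gate, 10 by Flt3 and 1 for Selp, leaving out cells with 20 or more UMIs of Camp and Ngp gave 1 for Selp, pools 1 to 4 gave 2 by Flt3, and pools 5 to 8 gave 116, 345, 51 and 1 for the counterpart, the stem gate, Flt3 and Selp. Leaving out each pool in turn gave 0 to 4 calls by housing, 16 to 31 by Flt3 and 0 to 9 for Selp.

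Of the shares of cells with a UMI, 59 values kept their sign and 13 did not: Flt3 (2.58 in pools 1 to 4, and −2.0 to 2.41 with a pool left out), Mpo (−1.12 in pools 5 to 8), Gata2 (2.53 in pools 1 to 4, and −2.40 to 1.19 with a pool left out), Cd27 (0.689 not thinned, 3.39 in pools 5 to 8) and Mki67 (4.13 not thinned, 2.01 in pools 5 to 8), all in percentage points. The log2 differences that changed sign were, on thinned cells, Camp by housing (−0.75), Ms4a3 (−0.42), Elane (−1.01) and Hdc (−0.71) against other cells and Apoe against the stem gate (−0.00113), and, without Elane-rich cells, Alas1 by Flt3 (0.13). No paired analysis was possible because the housing groups share no replicate numbers.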
